A study of Arabidopsis thaliana with 12 samples.

Results

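The 5 genes described here encode cell wall glycosyl hydrolases of Arabidopsis thaliana: the endoglucanase genes GH9B8 (AT2G32990), GH9B11 (AT2G44560), GH9B12 (AT2G44570) and GH9B16 (AT4G38990), and AT1G11820, a gene of the family that holds beta-glucanases. They were chosen by name among the 691 genes with an array feature of their own, out of 3438 genes or features tested, with their values in pam46 and wild type (WT) already known. Total RNA of 6 WT samples and 6 samples of the pam46 mutant, both of ecotype Columbia 0, was measured on an array. Per the labels, the mutant has altered photosynthesis and is defective in a protein not yet known. The sources used here do not give the tissue, the plants' age, the growth conditions or the mutated gene. Sample numbers from 1 to 6 occur in both groups. No label says that samples came from separate plants, so the errors cover sample-to-sample spread alone and part or all of it may be technical.

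Glycosyl hydrolases of the GH9 family are endoglucanases, which cut beta-linked glucan chains such as cellulose inside the chain. In plants, class A enzymes such as KORRIGAN are anchored in membranes and take part in cellulose synthesis, class B enzymes are secreted into the wall, and class C enzymes carry an added domain that binds carbohydrate. Glycosyl hydrolases of the GH17 family, to which AT1G11820 belongs, include the glucanases that cut callose, a glucan laid down at plasmodesmata, in new cell plates and at sites of attack by pathogens. Both families are known from growing, separating and remodelled cell walls. The roles of the single class B genes given here are not stated, because they are not known with certainty.

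Intensities were deposited on a linear scale that runs from 0 to a cap of 100. Their sum per sample lay between 3290 and 3644 in WT and between 3297 and 3561 in pam46, whereas the median feature stood at 0.296 to 0.341 in WT and 0.199 to 0.226 in pam46. Each WT sample listed 133 to 179 features at 0, and each pam46 sample 196 to 317. Because medians differed, log2 differences are given after quantile normalization unless the deposited scale is named. The median log2 difference over all features was 0 after normalization and -0.36 on the deposited scale. That shift was not the same for each gene, so -0.36 does not serve to correct a deposited difference. For example, GH9B12 was at -1.42 deposited and -0.57 normalized, and AT1G11820 at -3.10 and -2.91. Array intensities do not allow a level of one gene to be set against that of another, so each gene is compared only with itself. In these samples fewer cells expressing a gene and less RNA per cell cannot be told apart.

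All 5 genes were lower in pam46 than in WT, with log2 differences of -2.91 to -0.43 after normalization and -3.10 to -0.96 on the deposited scale. Every pam46 sample lay below every WT sample in deposited intensity for 4 of the 5 genes, the exception being GH9B11. Over all 3438 features, 23.6% showed that separation. After normalization 3 of the 5 genes were still separated in this way, as were 12.5% of all features. In the fit across all features (limma, adjusted p under 0.05), GH9B8, GH9B16 and AT1G11820 were past the threshold as lower in pam46, and 21.6% of all features were. With the sample number as a replicate block, all 5 were past it, as were 24.5% of all features, and the standard errors of GH9B11 and GH9B12 were both 0.11 where they were both 0.23 without the block. On the deposited scale all 5 were past it too, with 37.8% of all features, and with consecutive numbers averaged, 3 against 3, 2 of the 5 were, with 9.08%. Since these values chose the genes, the differences are descriptions without a test and nothing is read from these counts.

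**Figure D1:**
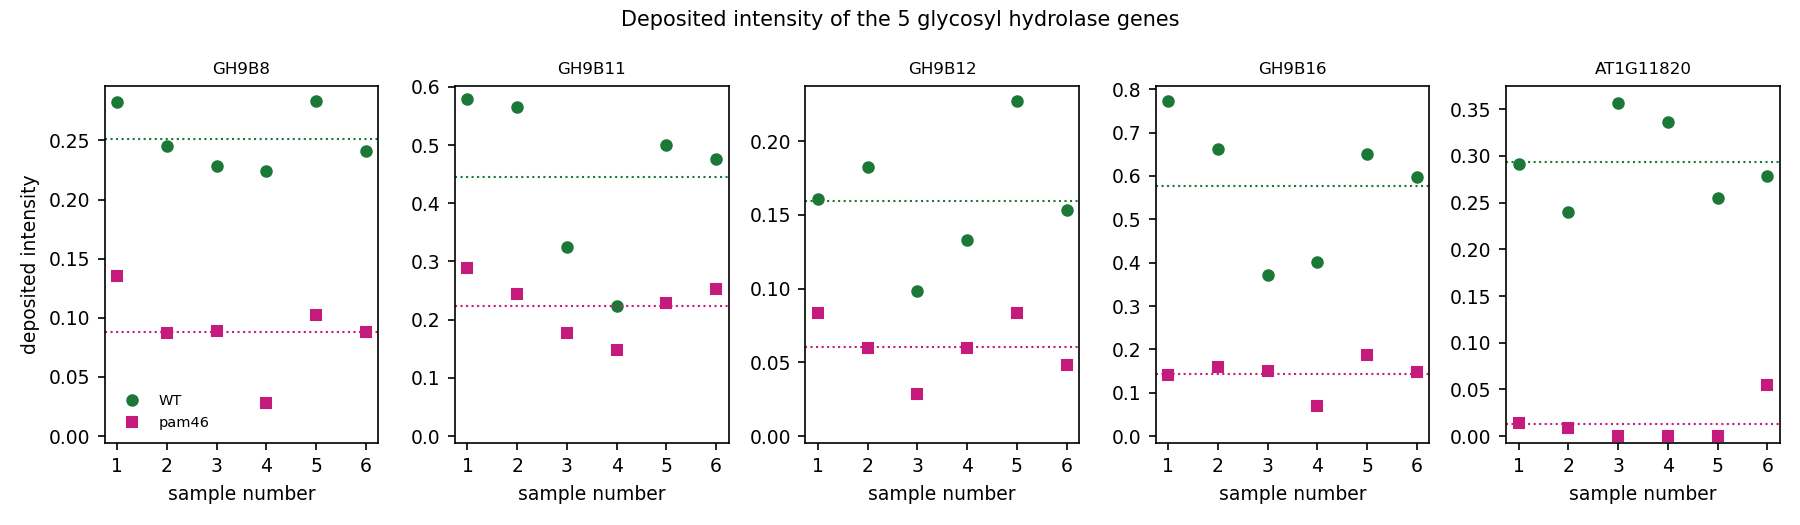
Deposited intensity (linear scale) of GH9B8, GH9B11, GH9B12, GH9B16 and AT1G11820 by sample number, with WT as circles, pam46 as squares and dotted lines at the mean of 6 samples. The groups are apart in every panel but that of GH9B11, where WT sample 4 (0.224) lies among the pam46 samples.

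GH9B11 and GH9B12 are neighbours on the chromosome, in a run with GH9B9 and GH9B10, according to the gene order of the RefSeq table (assembly TAIR10.1). GH9B11 ranged from 0.224 to 0.580 in WT (median 0.489) and from 0.147 to 0.288 in pam46 (median 0.236). The groups overlapped, because WT sample 4 was lower than 4 of the 6 pam46 samples. The WT mean was 0.445 ± 0.141 and the pam46 mean 0.223 ± 0.0520 (SD, n = 6 each), so that pam46 stood at 50.1% of WT. After normalization the log2 difference was -0.43 ± 0.23 (SE), the smallest of the 5 genes, and it was -0.96 ± 0.26 on the deposited scale. Between samples of the same number, the ratio of WT to pam46 in deposited intensity ran only from 1.52 to 2.32. After normalization 5 of the 6 numbers were lower in pam46, number 4 being at 0.03.

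GH9B12 ranged from 0.0985 to 0.228 in WT (median 0.157) and from 0.0285 to 0.0836 in pam46 (median 0.0598). The deposited values did not overlap, though the lowest WT sample was only 1.18 times the highest pam46 sample, and after normalization the groups did overlap. The WT mean was 0.159 ± 0.0439 and the pam46 mean 0.0606 ± 0.0211 (SD, n = 6 each). The log2 difference was -0.57 ± 0.23 (SE) after normalization and -1.42 ± 0.27 on the deposited scale. All 6 numbers were lower in pam46, with WT 1.93 to 3.46 times pam46.

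GH9B8 had the narrowest WT spread of the 4 endoglucanase genes, from 0.224 to 0.283 (median 0.243). In pam46 it ranged from 0.0277 to 0.136 (median 0.0886), without overlap. The mean of WT was 0.251 ± 0.0260 and that of pam46 0.0884 ± 0.0350 (SD, n = 6 each), a pam46 level of 35.2% of WT. The log2 difference was -0.90 ± 0.23 (SE) after normalization and -1.62 ± 0.29 on the deposited scale. WT was 2.09 to 2.81 times pam46 in 5 of the 6 numbers and 8.10 times in number 4, where the lowest pam46 sample lies. Features close in number to that of GH9B8 were also lower in pam46: of the 4 measured at 1, 6 or 12 numbers away, 3 had log2 differences of -1.32 to -0.82 and the fourth was at 0.49. With each sample corrected by the features within 12 numbers, GH9B8 was at -0.33 ± 0.19 (SE). The sources used here do not give the layout of the array, and the part of these features in the result was not tested.

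GH9B16 showed the largest difference of the endoglucanase genes. It ranged from 0.371 to 0.772 in WT (median 0.625) and from 0.0691 to 0.187 in pam46 (median 0.149), and the lowest WT sample was 1.98 times the highest pam46 sample. The mean of WT was 0.576 ± 0.158 and that of pam46 0.143 ± 0.0395 (SD, n = 6 each), so pam46 stood at 24.8% of WT. The log2 difference was -1.48 ± 0.22 (SE) after normalization, 2.79-fold lower, and -2.02 ± 0.26 on the deposited scale. All 6 numbers were lower in pam46, with WT 2.46 to 5.82 times pam46. Correction by neighbouring feature numbers left it at -1.39. Its neighbours moved in both directions, from -2.17 for AT2G23890 at the number before to 3.45 at the number after.

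AT1G11820 was close to 0 in pam46. It ranged from 0.240 to 0.357 in WT (median 0.285), while in pam46 3 samples were listed at 0 and the others stood at 0.00887, 0.0146 and 0.0548. The lowest WT sample was 4.38 times the highest pam46 sample, number 6. Mean intensity was 0.293 ± 0.0456 in WT (SD, n = 6). No mean or share of WT is given for pam46, since sample 6 would make up most of it. In 5 of 6 pam46 samples the normalized value was at or under the floor of 0.0278 that was set before taking logs, so the log2 difference of -2.91 ± 0.24 (SE) depends on that floor. It was -5.30 with the floor at the 1st percentile and -1.23 with the floor at the 20th. Of the 4 features measured at 1, 6 or 12 numbers away, 1 was lower in pam46, at -0.10, and the others ran from 0.12 to 2.23. Over all features within 12 numbers, differences went in both directions, from -2.24 to 2.23. With each sample corrected by these features, AT1G11820 was at -2.53 ± 0.22 (SE).

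**Figure D2:**
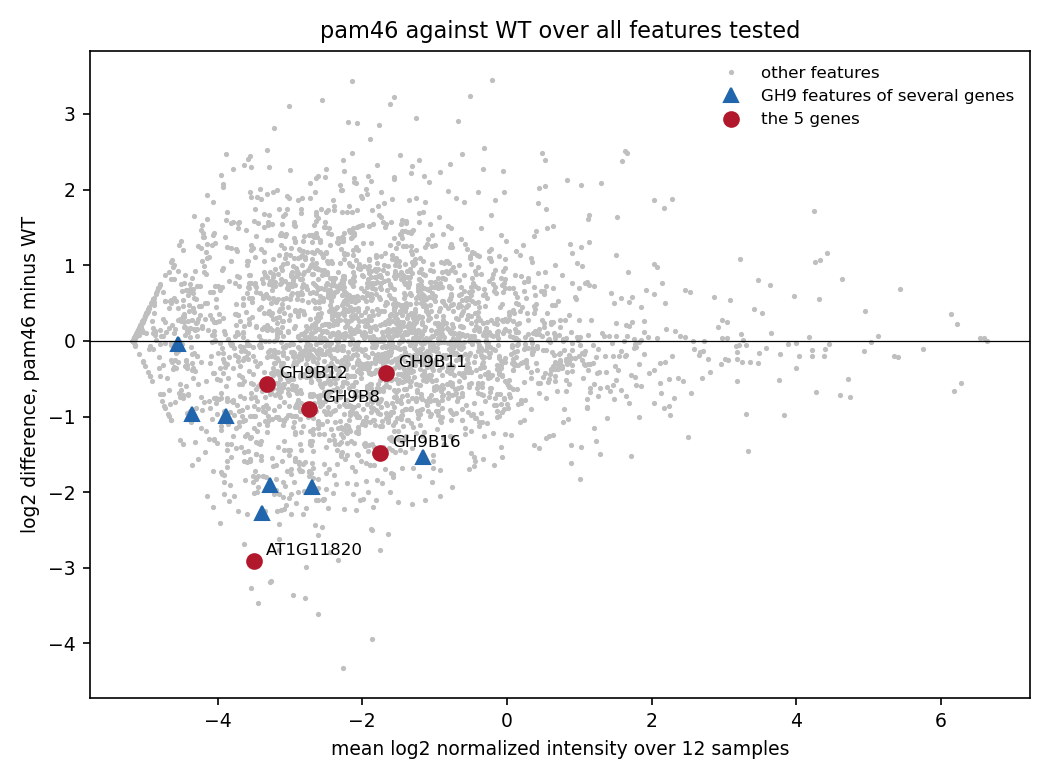
Log2 difference (pam46 minus WT) against mean log2 normalized intensity for all features tested, with the 5 genes as labelled circles and 7 features annotated with several genes, GH9 genes among them, as triangles. All 12 marked features lie below 0, from -0.04 to -2.91, and the wedge on the left is set by the floor.

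Within each group the 5 genes were also compared between sample numbers. Samples 3 and 4 stood apart over the whole array: in both groups they had the lowest sums, the lowest medians and the most features at 0. In deposited intensity, WT samples 3 and 4 were the lowest of the 6 for all 4 endoglucanase genes, and their mean was 51.8% of that of the other samples for GH9B11, 57.6% for GH9B16, 64.0% for GH9B12 and 86.1% for GH9B8. In pam46 the corresponding shares were 63.9%, 68.9%, 64.0% and 56.4%, and of the 4 genes only GH9B11 had samples 3 and 4 as the lowest. After normalization WT samples 3 and 4 were still the lowest for GH9B11 and GH9B16, and not for GH9B8 and GH9B12. The share of all features with WT samples 3 and 4 lowest is not given here, and how far the array-wide difference of these samples sets the pattern was not tested. For AT1G11820, WT samples 3 and 4 were the highest, at 130% of the others in deposited intensity. In a limma fit with group and number, the 6 numbers did not differ past an adjusted p of 0.05 for any of the 5 genes (adjusted p = 0.0951 for GH9B12, 0.0986 for GH9B11, 0.307 for GH9B16, 0.395 for GH9B8 and 0.778 for AT1G11820), a threshold passed by 3.20% of all features. The labels do not say what the numbers mean. Deviations from the group means, after normalization and over 12 samples, correlated at r = 0.75 between GH9B11 and GH9B16, 0.67 between GH9B8 and GH9B16, 0.49 between GH9B11 and GH9B12, and 0.22 between GH9B8 and GH9B12. The 12 points are 6 numbers in 2 groups, and samples with the same or consecutive numbers deviated together over the array, so the correlations are descriptions.

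Among the genes with a feature of their own, those whose deviations were most like GH9B11 over the 12 samples were AT2G38500 (r = 0.96), AT4G05070 (0.94) and AT4G24910 (0.91). For GH9B16 they were AT4G14380 (0.91), AT4G08630 (0.84) and AT4G20820 (0.80), for GH9B12 AT4G20760 (0.81), AT2G02590 (0.76) and AT2G26100 (0.74), and for GH9B8 AT1G61590 (0.79), AT2G05120 (0.78) and AT4G37230 (0.78). The median r over 624 genes lay between -0.06 and 0.01 for each of the 4, and none of the genes most alike was another of the 5. AT1G11820 had only 7 of 12 samples above the floor and was left out of this search.

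The array held more of the GH9 family than these 4 genes. The RefSeq table holds 21 genes with a GH9 symbol, 12 of which appear on 11 features: 4 features of their own and 7 that the platform annotation assigns to several genes. A feature of several genes names none of them, and no single gene is credited with its signal. All 7 had negative log2 differences, and 5 fell in pam46 past an adjusted p of 0.05 in the limma fit, against 21.6% of all features. Their median was -1.53 after normalization, against 0 for all features, and none was higher in pam46 past the threshold. Among the 5 that hold none of the 4 chosen genes, 3 fell and the median was -0.99. All 7 were added after values were seen, so these counts are descriptions. With consecutive sample numbers averaged, 3 against 3, 3 of the 7 fell, where 9.08% of all features did.

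Of these 7 features, 2 include one of the 4 genes. The feature of GH9B16 with its chromosomal neighbours GH9B17 and GH9B18 ranged from 0.503 to 1.09 in WT and from 0.101 to 0.299 in pam46, without overlap. It fell by 1.53 on the log2 scale (± 0.24 SE, limma adjusted p = 0.000507, higher in WT in 6 of 6 numbers). Its deviations followed those of GH9B16 at r = 0.89, and the pair lie 12 feature numbers apart. The feature of GH9B9, GH9B10, GH9B11 and GH9B12 ranged from 0.193 to 0.582 in WT and from 0 to 0.122 in pam46, with pam46 samples 3 and 4 listed at 0. It fell by 1.93 (± 0.51 SE, limma adjusted p = 0.0103), while GH9B11 and GH9B12 on their own features were at -0.43 and -0.57. Its call ended with consecutive numbers averaged (adjusted p = 0.138), with the replicate block added to those averages (0.0509) and with the floor at the 1st percentile (0.0657).

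The other 5 features hold none of the 4 genes. The feature of GH9B9 and GH9B10, the other genes of that run, ranged from 0.143 to 0.355 in WT and from 0 to 0.0572 in pam46, and fell by 1.90 (± 0.33 SE, limma adjusted p = 0.000947). It lies 12 feature numbers from that of GH9B11 and 24 from that of GH9B12, and its deviations followed GH9B12 at r = 0.89 and GH9B11 at r = 0.50. The feature of GH9B17, GH9B18 and AT3G42155 fell by 2.27 (± 0.25 SE, limma adjusted p = 4.12e-05), from 0.263 ± 0.0510 in WT to 0.0268 ± 0.0182 in pam46 (deposited intensity, SD, n = 6). GH9B14 and GH9B15 share 2 features. The first, number 2019, fell by 0.99 (± 0.30 SE, limma adjusted p = 0.0208), a call that ended in 6 of 26 alternatives, with adjusted p up to 0.780 after correction by neighbouring feature numbers, where it was at -0.11. The second, number 2884, was at -0.97 ± 0.65 (limma adjusted p = 0.262) and listed at 0 in 2 WT and 5 pam46 samples. The feature of the class C genes GH9C2 and GH9C3 was at -0.04 ± 0.39 (limma adjusted p = 0.966), with 2 WT and 3 pam46 samples at the floor, and its sign turned in 8 alternatives. Which of the annotated transcripts each feature bound was not tested.

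**Figure D3:**
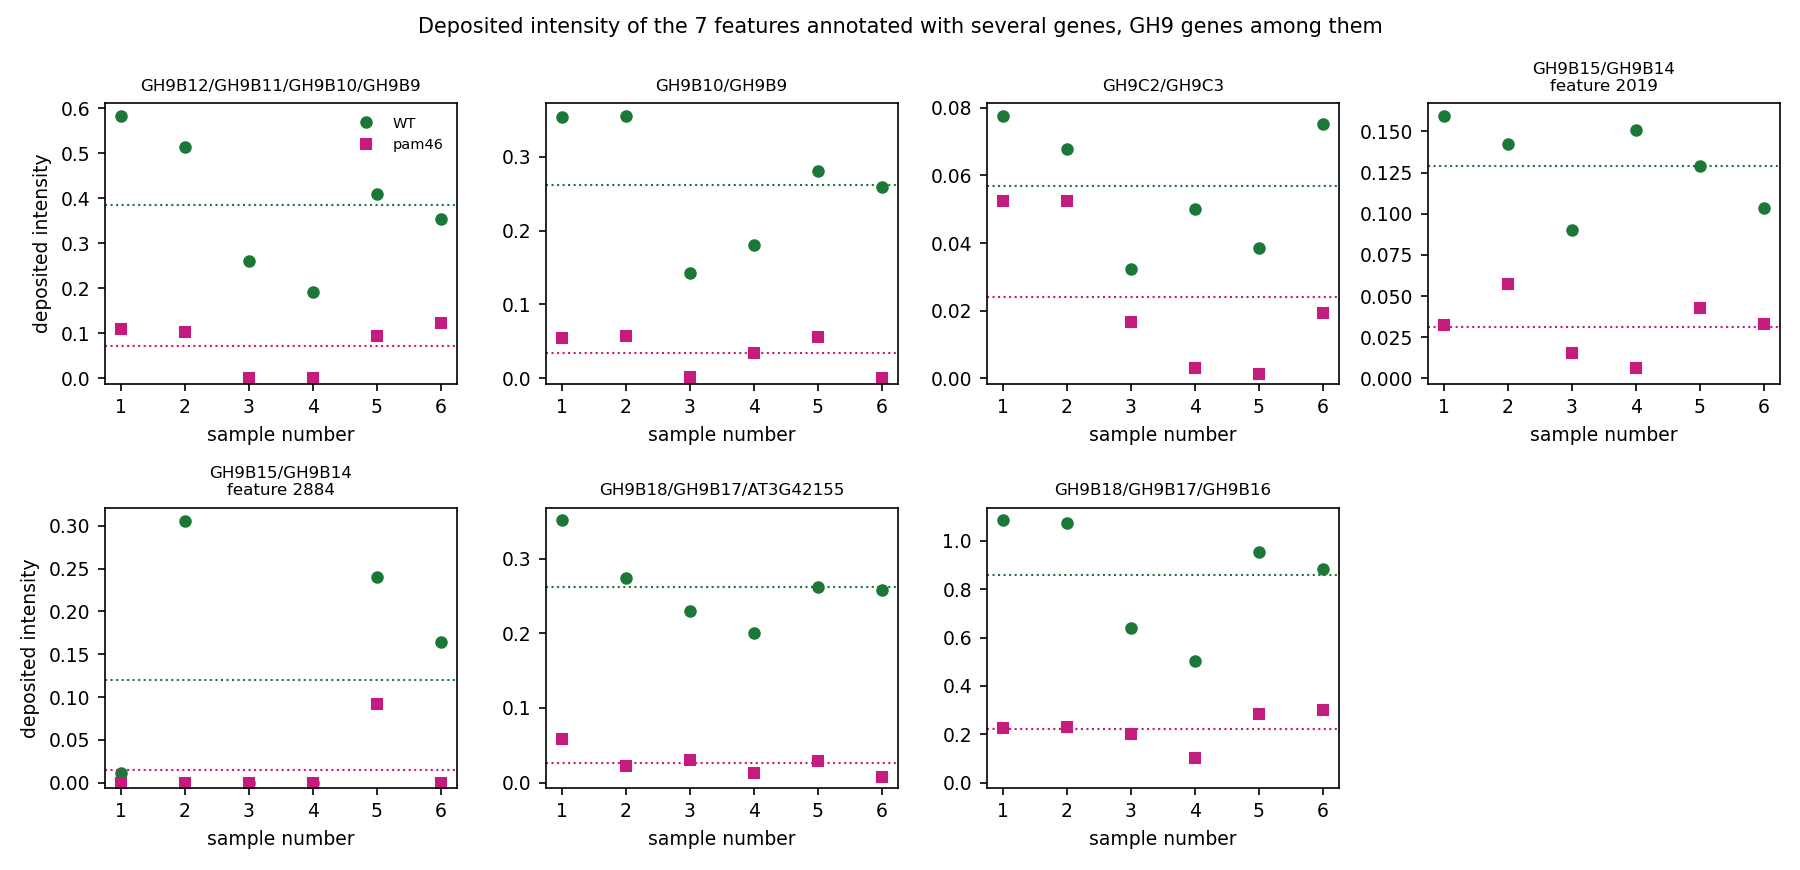
Deposited intensity (linear scale) by sample number of the 7 features annotated with several genes, GH9 genes among them, with WT as circles, pam46 as squares and dotted lines at group means. Groups are apart in 5 panels and overlap for GH9C2/GH9C3 and for feature 2884 of GH9B14 and GH9B15. Over all features, 23.6% had every pam46 sample below every WT sample in deposited intensity. After normalization the groups of feature 2019 overlapped as well, and 12.5% of all features were separated in that way.

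Few other cell wall genes were found by name on the array. Of 7 lists of wall genes, taken by symbol or synonym, only CSLA01 of the cellulose synthase-like genes, whose family makes mannan chains of the wall matrix, had a feature of its own apart from the GH9B genes. Genes known only by a locus name could not enter these lists, so the array may hold more wall genes than those given here. CSLA01 was higher in pam46, from 0.449 ± 0.129 to 0.601 ± 0.256 (deposited intensity, SD, n = 6), and rose by 0.71 (± 0.25 SE, limma adjusted p = 0.0424, higher in 6 of 6 numbers), where 19.5% of all features rose. Its groups overlapped, and the call ended in 13 of 27 alternatives, among them the values as deposited (0.36, adjusted p = 0.323), consecutive numbers averaged (adjusted p = 0.227) and the omission of WT sample 1, 2, 3 or 4, or of pam46 sample 1, 2, 5 or 6 (0.0600 to 0.0879).

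Of 5 further features whose several genes all belong to one wall list, 3 fell, 1 rose and 1 did not pass, where 21.6% of all features fell and 19.5% rose. The feature of PME61 and ATPMEPCRD, pectin methylesterase genes whose enzymes remove methyl groups from pectin, fell by 2.76 (± 0.36 SE, limma adjusted p = 0.000119), from 0.656 to 1.20 in WT to 0.0335 to 0.194 in pam46. The feature of the expansin-like genes EXLA2 and EXLB1 fell by 1.64 (± 0.28, limma adjusted p = 0.000776). The cellulose synthase-like C genes, whose family makes the xyloglucan backbone, are also named on features outside these 5. There CSLC12 stands beside genes with only a locus name, with log2 differences of 0.81 and 0.04 among them. Within the 5, these genes had 2 features that differed in opposite directions. The one of CSLC04, CSLC5, CSLC12 and ATCSLC08 fell by 1.42 (± 0.12, limma adjusted p = 9.21e-06), and the one of CSLC5, CSLC6 and ATCSLC08 rose by 0.45 (± 0.08, limma adjusted p = 0.00106, and 0.0688 with consecutive numbers averaged). BGLU45 and BGLU46, beta-glucosidase genes, shared a feature at 0.37 ± 0.41 (limma adjusted p = 0.514), whose sign turned on the deposited scale (-0.41). That value rested on WT sample 4, without which it was 0.00014, and after correction by neighbouring feature numbers the feature was called higher (0.87, adjusted p = 0.0207).

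With 1 sample left out, log2 differences stayed between -0.61 and -0.34 for GH9B11, -0.70 and -0.48 for GH9B12, -1.02 and -0.69 for GH9B8, -1.59 and -1.33 for GH9B16 and -3.12 and -2.83 for AT1G11820. For AT1G11820, 5 of 6 pam46 samples were at the floor, so its narrow range says little about spread between samples. The floor alone moved it to -5.30 at the 1st percentile and -1.23 at the 20th. Neighbour correction moved GH9B11 from -0.43 to -0.11 and GH9B8 from -0.90 to -0.33. The features that corrected GH9B11 included GH9B12 and the feature of GH9B9 and GH9B10, and those for GH9B16 included its feature shared with GH9B17 and GH9B18. Of 6 features 1, 6 or 12 numbers away, 4 were lower in pam46 for GH9B11 (range of all 6, -1.90 to 0.67). For GH9B12, 3 of 6 were lower (-0.43 to 0.70). The floor left GH9B11 and GH9B16 unchanged at the 1st and the 20th percentile. On the deposited scale GH9B12 moved most, from -0.57 to -1.42, and AT1G11820 least, from -2.91 to -3.10. A floor was set on that scale too, so the small move of AT1G11820 also depends on it. With equal medians, where the median of all features was 0.09, GH9B11 was at -0.40, GH9B12 at -0.87, GH9B8 at -1.08, GH9B16 at -1.46 and AT1G11820 at -2.74.

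**Figure D4:**
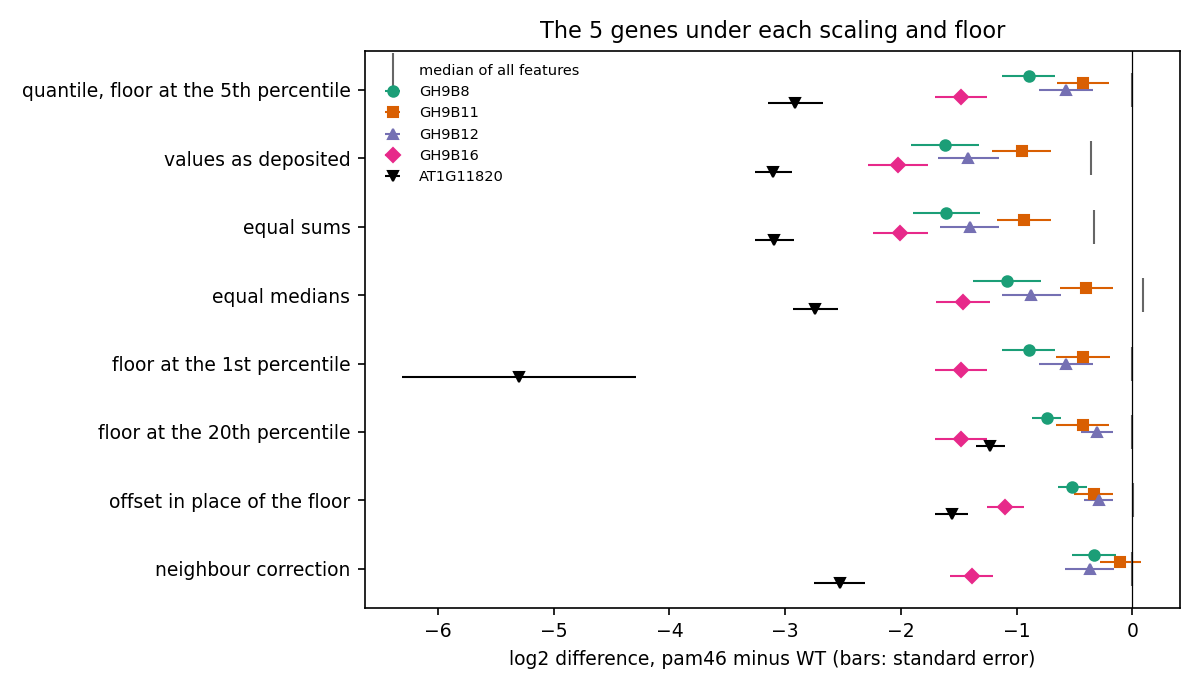
Log2 difference (pam46 minus WT, bars are standard errors) of the 5 genes under 8 settings of scaling, floor and neighbour correction, with the median of all features as a grey tick. All points lie below 0, AT1G11820 moves from -5.30 to -1.23 with the floor, and GH9B11 comes closest to 0, at -0.11 with neighbour correction.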

How the data were processed

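The deposited table gives an intensity for 3439 features in 12 samples; how the authors made it, background correction and scaling included, is not stated in the labels or the file. The platform annotation names 1 gene for 692 features, several for 870 and none for 1877. For a gene with more than 1 feature the brighter was kept, leaving 3438. Names and gene order come from RefSeq (TAIR10.1). Intensities were quantile-normalized, values under the 5th percentile of positive values (0.0278, or -5.17 on the log2 scale) were set to that floor, and log2 was taken. pam46 was compared with WT, 6 against 6, with limma 3.58.1 in R 4.3.3, two-sided, with Benjamini-Hochberg adjustment over all features. The fit was also run on simulated data with independent samples, which leave out the correlations between samples given below. The genes and lists were chosen with earlier results of these data known, and features of several genes were added after values were seen. Named were the 5 genes, up to 2 single genes of each wall list by smallest p, all features of several wall genes, the features 1, 6 and 12 numbers away, and for each gene the 3 most alike in deviations, with at least 8 samples above the floor. Alternatives changed scaling, floor, filter, blocks and samples. Deviations of same-numbered WT and pam46 samples correlated at r = 0.24 to 0.57 in all 6 pairs. Within a group, numbers 1 and 2, 3 and 4, and 5 and 6, here called consecutive, did at 0.26 to 0.67. Samples of unlike number were not compared between the groups, so whether numbers pair the samples was not tested. Tests that treat the 12 samples as independent can give p-values that are too small. The number of arrays limits the precision.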

Additional observations from a re-analysis of the deposited data

Results flagged for a closer look

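Samples far from the rest of their group of 6 (gap over range above Dixon's 95% critical value of 0.625) occurred in 5 of 36 groups, where chance marks about 1 in 20. On the log2 normalized scale, GH9B16 had pam46 sample 4 at -3.26 below a range of -2.52 to -2.13. The same sample, at -2.80, was also the low one on the feature of GH9B16, GH9B17 and GH9B18, where the rest of pam46 ran from -1.92 to -1.52. AT1G11820 had a single pam46 sample above the floor of -5.17, number 6 at -3.91. Feature 2884 of GH9B14 and GH9B15 likewise had only pam46 sample 5 above it, at -3.17. A lone sample above the floor is always marked. The feature of BGLU45 and BGLU46 had WT sample 4 at -5.12 below a range of -3.32 to -2.55. Without pam46 sample 4, GH9B16 was at -1.33, and without pam46 sample 6, AT1G11820 was at -3.12.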

How the results depend on the processing

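All 5 genes stayed lower in pam46 under each of 27 alternatives that kept them, and the filter on dim features took out GH9B12. GH9B11 came within its standard error of 0 with neighbour correction (-0.11 ± 0.18 SE). The genes were chosen with these values known, so the kept sign is a description. The count of 1413 changed features became 587 with consecutive numbers averaged, 693 with those averages and the replicate block, and 922 with a random block for consecutive numbers (correlation 0.614); 1 sample left out gave 1315 to 1390. Higher and lower calls were 669 and 744, and by scaling 373 and 1301 (deposited), 382 and 1274 (equal sums), or 899 and 642 (equal medians). The replicate block on 12 samples gave 1658 and changed no call among the other GH9 and wall features named. With it 5 of the 5 genes were past the threshold as lower, in place of 3, where 24.5% of all features were. That count was also 5 as deposited and with equal sums. It was 2 with numbers averaged, with the random block, with neighbour correction and without numbers 5 and 6. Nothing is read from it, since these values chose the genes. GH9 features of several genes that changed numbered 5, and 3 with numbers averaged, with or without the block; 1 sample left out kept 5. CSLA01 was the 1 other listed wall gene with a feature of its own. It left 0 changed as deposited, with equal sums, with averaging, with the random block and without numbers 1 and 2. With 1 sample left out, 0 to 1 changed. Signs turned for BGLU45 and BGLU46 as deposited (-0.41) and with equal sums (-0.39), and for GH9C2 and GH9C3 with neighbour correction (0.16), without numbers 1 and 2 (0.013) or 5 and 6 (0.047), and with 1 sample left out (-0.21 to 0.15); the cause was not tested. Intensities give no depth, and no measure of background was used.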
